A study of Mus musculus with 12 samples.

Results

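Fatty acid uptake and oxidation genes are described here as 31 genes chosen by name from the 24421 genes counted in each of 12 RNA-seq libraries of neonatal mouse cardiomyocytes. The set runs from the cell surface to the respiratory chain, and all 31 members passed the filter on low counts that left 12252 genes in the tests. Hearts came from CD1 mice at postnatal day 1. Glut1 transgenic mice carried aMHC-hGLUT1, aMHC-Cre and 1 R26 YFP reporter allele, and mice labelled wild type (WT) carried no hGLUT1 transgene; per the study's methods the WT cells were also sorted by YFP, so Cre and reporter are shared by the groups. The aMHC promoter drives both Cre and human GLUT1, a glucose transporter, in cardiomyocytes. YFP-positive cells were sorted by the signal of Mitotracker, a dye taken up by mitochondria, and the study calls the cells with higher signal Tnnt2low and those with lower signal Tnnt2high after a cardiac troponin gene. The groups were Glut1 transgenic Tnnt2low (n = 4), Glut1 transgenic Tnnt2high (n = 4), WT Tnnt2low (n = 2) and WT Tnnt2high (n = 2). Each Glut1 transgenic heart gave 1 library of each population. The 2 WT pairs share part of a heart label, and whether they come from 1 heart or 2 is not stated. Myh7, a myosin heavy chain of the fetal ventricle, had 1507 CPM (counts scaled to library size) in Tnnt2low and 1459 CPM in Tnnt2high cells of WT pair 1, against 7091 and 7108 CPM in WT pair 2, so in this gene the WT pairs differed by far more than the libraries within each pair.

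Long-chain fatty acids enter cardiomyocytes with the help of Cd36, are bound by Fabp3 and are activated to acyl-CoA by long-chain synthetases. Carnitine carries the acyl group through the mitochondrial membranes, at a step that malonyl-CoA inhibits, and each turn of beta-oxidation then shortens it through dehydrogenation, hydration, a second oxidation and thiolytic cleavage. The fetal heart relies mainly on glucose and lactate, and fatty acid oxidation becomes its main fuel use in the days after birth.

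The libraries held 4065306 to 9815069 reads assigned to genes. Cardiomyocyte markers (14 genes) summed to 151480 to 192310 CPM over the 12 libraries, so the labelled cell type was present in each. Mouse Slc2a1, whose counts may include reads of the human transgene, lay between 33.5 and 92.6 CPM in the 8 Glut1 transgenic libraries and between 13.3 and 28.9 CPM in the 4 WT libraries, without overlap. It was nevertheless not called by genotype in either population. Tnnt2 itself had 12660 to 13980 CPM in Glut1 transgenic Tnnt2low libraries, against 16090 to 20830 CPM in Glut1 transgenic Tnnt2high libraries, and 15740 and 16730 CPM in WT Tnnt2low, against 16250 and 17200 CPM in WT Tnnt2high libraries, where they overlapped. Fibroblast and matrix markers summed to 60.7 to 153 CPM in Glut1 transgenic Tnnt2low libraries, against 274 to 1084 CPM in Glut1 transgenic Tnnt2high libraries. Of these 12 markers 9 were called lower, against 8.33% of all tested genes. In WT they summed to 278 and 134 CPM in Tnnt2low, against 577 and 127 CPM in Tnnt2high libraries. Endothelial markers summed to 10.4 to 97.2 CPM in Glut1 transgenic Tnnt2low, against 41.0 to 324 CPM in Tnnt2high libraries, with 0 of 12 called. In WT these came to 117 and 15.4 CPM, against 416 and 18.8 CPM. The part of either list in the members' differences was not tested. Reads outside exons per read assigned to a gene came to 0.886 to 1.07 in Glut1 transgenic Tnnt2low libraries, against 2.26 to 2.63 in Glut1 transgenic Tnnt2high libraries. They came to 1.13 and 1.495 in WT Tnnt2low libraries, against 1.83 and 1.51 in WT Tnnt2high libraries. Glut1 transgenic hearts 2 and 4 had Ddx3y reads and at most 4.66 CPM of Xist, and all WT libraries had 199 CPM or more of Xist, so sex and genotype were not balanced.

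Per kilobase of transcript, a single binding protein made up most of the set. Fabp3 averaged 10041 FPKM (CPM per kilobase of transcript) over the 12 libraries, 55.4% of the members' sum, and Acadl, Etfb, Acaa2 and Hadha came next. Acaca was the lowest member, at 1.12 FPKM in Glut1 transgenic Tnnt2low libraries and 0.950 FPKM in Glut1 transgenic Tnnt2high libraries. Levels are compared between genes only on this scale. All other levels are CPM on TMM-scaled library sizes, listed by replicate number, and a gene was called at a Benjamini-Hochberg adjusted p under 0.05 in edgeR's quasi-likelihood test over all 12252 genes.

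In Glut1 transgenic hearts many beta-oxidation genes were lower in Tnnt2low cells and the carnitine palmitoyltransferase Cpt1a was higher, but most of these calls were lost once the fit took transcript length and GC content into account. Of the 31 members, 16 were called lower (8.33% of all tested genes) and 3 were called higher (8.42%). The 16 were Fabp3, Cd36, Slc25a20, Acadvl, Acadm, Acads, Hadh, Echs1, Acaa2, Eci1, Eci2, Decr1, Etfa, Etfb, Mlycd and Acot13, and the 3 were Cpt1a, Acacb and Lpl. The median log2 fold change, Tnnt2low over Tnnt2high, was -0.41 for the members and -0.01 for all tested genes. In 18 members every Tnnt2low library was below every Tnnt2high library (10.9% of tested genes), and in 3 every Tnnt2low library was above (11.2%). In a fit whose offset held both properties, 0 members were called lower (0.792% of tested genes) and 0 higher (0.408%), and the members' median was -0.19. At unadjusted p under 0.05, 8 members were lower and 2 higher in that fit, but the share of all tested genes was not counted there. With the same offset and the heart as a replicate block, which the paired libraries of each heart allow, Acads was called lower (1 of 31, 2.11% of tested genes) and Cpt1a higher (1 of 31, 1.49%). Fold changes with the offset alone stand beside those of the called members. Without Tnnt2low replicate 1 or 3, or Tnnt2high replicate 1 or 2, 8 or 9 members were called lower (5.2% to 6.14% of tested genes). With any 1 of these or Tnnt2low replicate 2 left out, 1 was called higher (4.91% to 6.07%). In bulk libraries fewer cells of a type and less RNA per cell cannot be told apart.

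**Figure D1:**
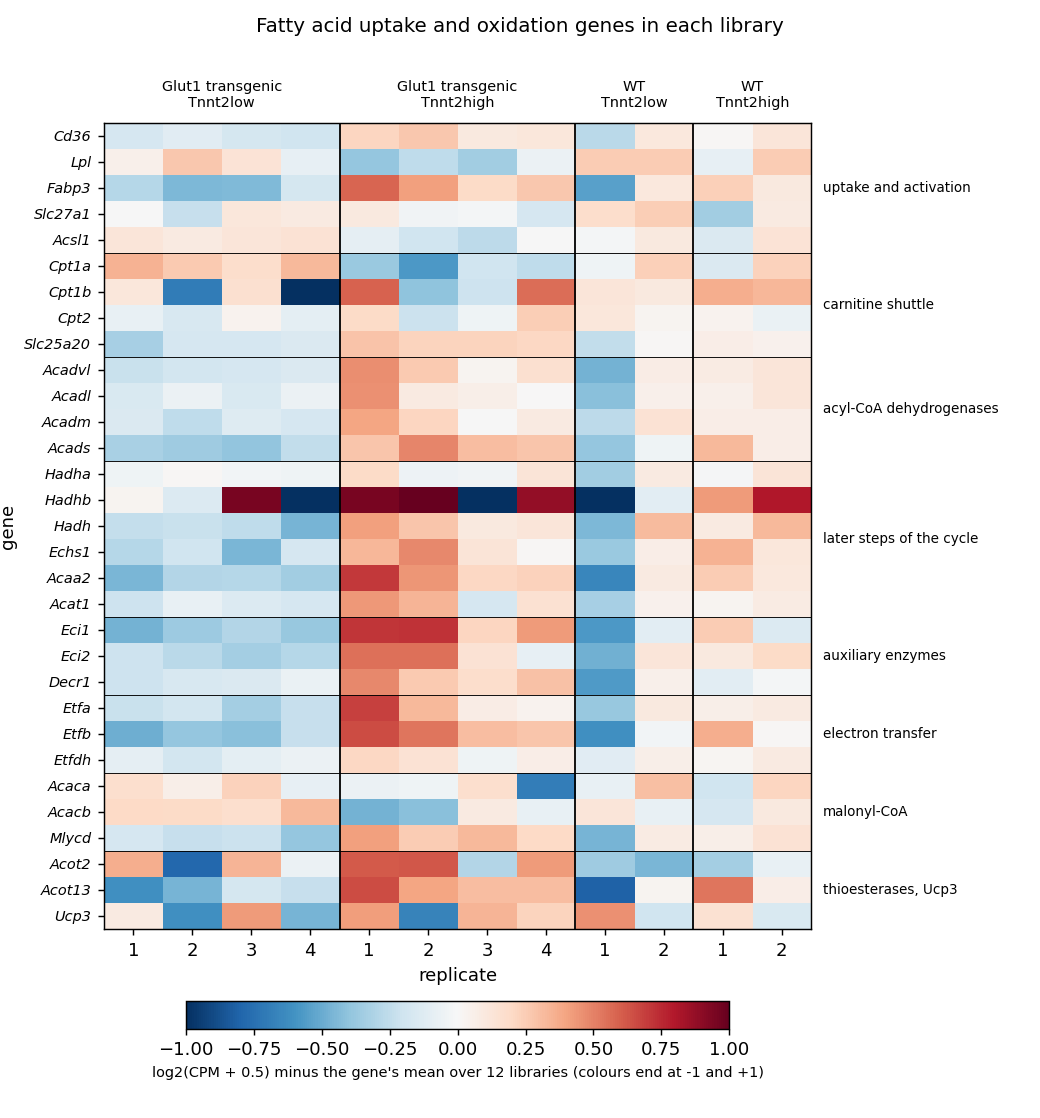
Colour shows log2(CPM + 0.5) of each gene in each library minus the gene's mean over the 12 libraries, with genes grouped by role in rows and libraries grouped in columns. Most beta-oxidation rows are blue in the 4 Glut1 transgenic Tnnt2low columns and in WT Tnnt2low replicate 1, and red in the Glut1 transgenic Tnnt2high columns, while Cpt1a, Lpl and Acacb run the other way in the Glut1 transgenic columns.

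Among the uptake genes, 2 of 5 were called lower (8.33% of all tested genes) and 1 higher (8.42%). Cd36, the fatty acid translocase of the plasma membrane, had 574, 595, 571 and 563 CPM in the Glut1 transgenic Tnnt2low libraries, against 748, 777, 688 and 697 CPM in the Tnnt2high libraries. It had 533 and 695 CPM in WT Tnnt2low, against 649 and 701 CPM in WT Tnnt2high libraries. The Glut1 transgenic populations did not overlap, at a log2 fold change of -0.34 ± 0.10 (SE, adjusted p = 0.0359, and -0.26 with the offset). Fabp3, the heart-type fatty acid binding protein, had 6583, 5891, 5914 and 7090.1 CPM in the Glut1 transgenic Tnnt2low libraries, against 12012, 10650, 9182 and 9665 CPM in the Tnnt2high libraries. In WT it had 5504 and 8630.3 CPM in Tnnt2low, against 9450.5 and 8596 CPM in Tnnt2high libraries. Every Glut1 transgenic Tnnt2low library was below every Tnnt2high library, with a log2 fold change of -0.70 ± 0.13 (SE, adjusted p = 0.00348, and -0.03 with the offset), whereas the WT populations overlapped. Sequence shared with Fabp3-ps1 and Gm16179 covered 37.8% of the Fabp3 transcript, so part of its reads may have been set aside as not unique.

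Lpl, the lipoprotein lipase that frees fatty acids from circulating lipoproteins, ran the other way. It had 1025, 1190.5, 1084 and 932 CPM in the Glut1 transgenic Tnnt2low libraries, against 754, 828, 775 and 949 CPM in the Tnnt2high libraries. The highest Tnnt2high library lay above the lowest Tnnt2low library, and the difference was called, at a log2 fold change of 0.36 ± 0.11 (SE, adjusted p = 0.0436, and 0.25 with the offset). With the heart as a block, Lpl was no longer called (adjusted p = 0.0542). In WT, Lpl had 1177 and 1175 CPM in Tnnt2low against 931 and 1178 CPM in Tnnt2high. The remaining pair, the transporter Slc27a1 and the long-chain acyl-CoA synthetase Acsl1, were not called, with log2 fold changes of 0.03 and 0.25 (adjusted p = 0.923 and 0.0945). Slc27a1 had 86.6, 73.9, 94.2 and 92.5 CPM in the Glut1 transgenic Tnnt2low libraries, against 93.0, 84.9, 85.5 and 77.4 CPM in the Tnnt2high libraries, with the populations overlapping, and 98.0 and 103 CPM in WT Tnnt2low against 68.2 and 92.5 CPM in WT Tnnt2high.

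Members of the carnitine shuttle moved in both directions. Cpt1a, the carnitine palmitoyltransferase of the outer mitochondrial membrane that is the main form in liver and is also expressed in the fetal heart, had 188, 177, 167 and 185 CPM in the Glut1 transgenic Tnnt2low libraries, against 114, 98.8, 128 and 124 CPM in the Tnnt2high libraries. All 4 Tnnt2low libraries were above all 4 Tnnt2high libraries, at a log2 fold change of 0.63 ± 0.13 (SE, adjusted p = 0.00615, and 0.45 with the offset), the largest rise among the members. In WT cells Cpt1a had 143 and 174 CPM in Tnnt2low, against 134 and 174 CPM in Tnnt2high libraries, with no separation. Cpt1b, the muscle form of the same enzyme, had 36.7, 20.7, 37.8 and 16.4 CPM in the Glut1 transgenic Tnnt2low libraries, against 51.3, 25.5, 29.3 and 50.1 CPM in the Tnnt2high libraries, and the populations overlapped. In WT, Cpt1b had 36.9 and 36.2 CPM in Tnnt2low against 43.6 and 42.7 CPM in Tnnt2high. Its log2 fold change in Glut1 transgenic cells was -0.49 ± 0.28 (SE, adjusted p = 0.259), so Cpt1b was not called.

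Slc25a20, the carnitine-acylcarnitine translocase, had 121, 135, 136 and 138 CPM in the Glut1 transgenic Tnnt2low libraries, against 186, 178, 178 and 177 CPM in the Tnnt2high libraries, without overlap, and a log2 fold change of -0.44 ± 0.11 (SE, adjusted p = 0.0132, and -0.17 with the offset). It had 129 and 154 CPM in WT Tnnt2low, against 159.7 and 157 CPM in WT Tnnt2high libraries. Cpt2, which rebuilds acyl-CoA on the matrix side, had 169 to 193 CPM in Glut1 transgenic Tnnt2low libraries and 162 to 223 CPM in Tnnt2high libraries, and was not called. The log2 ratio of Cpt1b to Cpt1a counts within a library averaged -2.77 ± 0.63 in Glut1 transgenic Tnnt2low libraries and -1.63 ± 0.48 in Tnnt2high libraries (SD, n = 4 each). The difference of -1.14 had p = 0.0286 in a two-sided exact permutation test, the smallest that 4 against 4 libraries can give. The adjusted p was 0.343 over the 12 ratio comparisons, where no adjusted p could fall under 0.05 with these numbers of libraries. In WT the ratio averaged -2.11 ± 0.22 in Tnnt2low libraries and -1.82 ± 0.29 in Tnnt2high libraries (SD, n = 2 each), where 2 against 2 libraries cannot give an exact permutation p below 0.333.

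All 4 acyl-CoA dehydrogenases, which take the first pair of electrons from chains of decreasing length, had negative log2 fold changes in Glut1 transgenic cells (50.4% of all tested genes). Of these 4, 3 were called lower (8.33% of all tested genes). Acads, the short-chain enzyme, had 315, 309, 300.4 and 333 CPM in the Glut1 transgenic Tnnt2low libraries, against 480.3, 553, 490.5 and 479 CPM in the Tnnt2high libraries. The difference was -0.67 ± 0.11 (SE, adjusted p = 0.00219, and -0.42 with the offset) on the log2 scale, with no overlap. In WT, Acads had 302 and 383 CPM in Tnnt2low against 496 and 415 CPM in Tnnt2high, also without overlap. Acadvl, the very-long-chain enzyme of the inner membrane, had 1024, 1053, 1065 and 1082 CPM in the Glut1 transgenic Tnnt2low libraries, against 1650.5, 1430.1, 1214 and 1332 CPM in the Tnnt2high libraries, and 859 and 1256 CPM in WT Tnnt2low against 1264 and 1300.3 CPM in WT Tnnt2high. Its log2 fold change in Glut1 transgenic cells was -0.41 ± 0.12 (SE, adjusted p = 0.0328, and -0.25 with the offset), and 1151 bases of its exons overlap Dvl2 on the other strand. Acadm, the medium-chain enzyme, had 901, 836, 911 and 888 CPM in the Glut1 transgenic Tnnt2low libraries, against 1310.1, 1158, 997 and 1061 CPM in the Tnnt2high libraries, again without overlap. It had 832 and 1103 CPM in WT Tnnt2low, against 1046 and 1046 CPM in WT Tnnt2high libraries. The difference was -0.36 ± 0.11 (SE, adjusted p = 0.0414, and -0.15 with the offset) on the log2 scale, and 12.5% of its transcript was shared with other loci. Acadl, the long-chain enzyme, was lower in every Glut1 transgenic Tnnt2low library than in any Tnnt2high library but was not called (log2 fold change -0.27, adjusted p = 0.138).

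Of the 6 members of the later steps, 3 were called lower, against 8.33% of all tested genes. Acaa2, the mitochondrial thiolase, had 865, 973, 976 and 937 CPM in the Glut1 transgenic Tnnt2low libraries, against 1944, 1619.9, 1373 and 1396 CPM in the Tnnt2high libraries. In WT, Acaa2 had 758 and 1267 CPM in Tnnt2low against 1417 and 1278 CPM in Tnnt2high, and in both genotypes the populations did not overlap. The log2 fold change of Acaa2 was -0.76 ± 0.15 (SE, adjusted p = 0.0048, and -0.38 with the offset) in Glut1 transgenic cells. Echs1, the short-chain enoyl-CoA hydratase, had 171, 182, 152 and 186 CPM in the Glut1 transgenic Tnnt2low libraries, against 263, 291, 228 and 210.5 CPM in the Tnnt2high libraries, and 162 and 219 CPM in WT Tnnt2low against 266 and 226 CPM in WT Tnnt2high. Echs1 had a log2 fold change of -0.52 ± 0.14 (SE, adjusted p = 0.0194, and -0.17 with the offset) in Glut1 transgenic cells, and it overlaps Paox over 142 exon bases on the other strand. Hadh, the short-chain hydroxyacyl-CoA dehydrogenase, had 454, 459, 451 and 389 CPM in the Glut1 transgenic Tnnt2low libraries, against 714, 651, 573 and 583 CPM in the Tnnt2high libraries. The log2 fold change of Hadh was -0.52 ± 0.15 (SE, adjusted p = 0.0251, and -0.25 with the offset), without overlap. In WT it had 393 and 669 CPM in Tnnt2low, against 572 and 671 CPM in Tnnt2high libraries. Acat1, which cleaves acetoacetyl-CoA, was not called (log2 fold change -0.35, adjusted p = 0.0716).

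Hadha and Hadhb encode the alpha and beta subunits of the mitochondrial trifunctional protein, which takes long chains through the last 3 reactions of a turn. The genes lie head to head on chromosome 5, Hadha on the minus strand (chr5:30118304-30155162) and Hadhb on the plus strand (chr5:30155248-30184593), in mm10 with GENCODE vM21. The 85 bases between them at chr5:30155163-30155247 are shown because both genes begin at their edges. They are taken from the RefSeq window of GRCm38.p6 on the plus strand, and capitals mark the 9 CG pairs in a stretch of 69.4% G and C.
Hadha-Hadhb: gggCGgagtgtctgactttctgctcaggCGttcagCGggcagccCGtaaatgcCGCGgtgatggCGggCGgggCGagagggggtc

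Hadha varied less between libraries than Hadhb. Hadha had 2667, 2765, 2689.7 and 2664 CPM in the Glut1 transgenic Tnnt2low libraries, against 3139, 2653, 2669 and 3004 CPM in the Tnnt2high libraries, and 2154 and 2926 CPM in WT Tnnt2low against 2714 and 2999.7 CPM in WT Tnnt2high. Its log2 fold change in Glut1 transgenic cells was -0.09 ± 0.10 (SE, adjusted p = 0.608). Hadhb had 219, 196, 416 and 65.1 CPM in the Glut1 transgenic Tnnt2low libraries, against 415, 518, 93.0 and 395 CPM in the Tnnt2high libraries, and 48.2 and 199 CPM in WT Tnnt2low against 289 and 375 CPM in WT Tnnt2high. Within Glut1 transgenic groups Hadhb ranged over several-fold, and its log2 fold change of -0.66 ± 0.53 (SE, adjusted p = 0.43) was not called. Sequence shared with Gm13910 and Gm9108 covered 62.3% of the Hadhb transcript and none of the Hadha transcript. The log2 ratio of Hadha to Hadhb counts averaged 3.87 ± 1.10 in Glut1 transgenic Tnnt2low libraries and 3.26 ± 1.09 in Tnnt2high libraries (SD, n = 4 each; exact permutation p = 0.457, adjusted p = 0.889). In WT it averaged 4.68 ± 1.13 in Tnnt2low libraries and 3.11 ± 0.16 in Tnnt2high libraries (SD, n = 2 each; exact permutation p = 0.333, adjusted p = 0.889).

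All 3 auxiliary enzymes, which prepare unsaturated fatty acids for the cycle, were called lower, against 8.33% of all tested genes. Eci1, an enoyl-CoA isomerase, had 194, 209, 219 and 206 CPM in the Glut1 transgenic Tnnt2low libraries, against 442, 443, 312 and 360.2 CPM in the Tnnt2high libraries. Its log2 fold change of -0.91 ± 0.15 (SE, adjusted p = 0.00202, and -0.39 with the offset) was the largest fall among the members. In WT, Eci1 had 180 and 249 CPM in Tnnt2low against 321 and 244 CPM in Tnnt2high, so WT replicate 1 showed a difference and replicate 2 did not. Eci2, an isomerase of mitochondria and peroxisomes, had 134, 128, 122 and 126 CPM in the Glut1 transgenic Tnnt2low libraries, against 227, 226, 171 and 146 CPM in the Tnnt2high libraries. It had 111 and 169 CPM in WT Tnnt2low, against 166 and 177 CPM in WT Tnnt2high libraries, and a log2 fold change in Glut1 transgenic cells of -0.59 ± 0.16 (SE, adjusted p = 0.0222, and -0.30 with the offset), with 13.0% of its transcript shared with other loci. Decr1, the dienoyl-CoA reductase, had 299, 309, 311 and 329.6 CPM in the Glut1 transgenic Tnnt2low libraries, against 479.9, 412, 390.1 and 422 CPM in the Tnnt2high libraries. Decr1 had a log2 fold change of -0.45 ± 0.13 (SE, adjusted p = 0.0273, and -0.39 with the offset), without overlap. In WT, Decr1 had 233 and 357 CPM in Tnnt2low against 320.4 and 340.2 CPM in Tnnt2high.

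Electron transfer flavoprotein, built from Etfa and Etfb, passes electrons from the acyl-CoA dehydrogenases to the respiratory chain through the dehydrogenase Etfdh. Etfb had 541, 580.4, 569 and 647 CPM in the Glut1 transgenic Tnnt2low libraries, against 1194, 1100.5, 939 and 918 CPM in the Tnnt2high libraries. It had 495 and 745 CPM in WT Tnnt2low, against 978 and 764 CPM in WT Tnnt2high libraries. The log2 fold change was -0.83 ± 0.14 (SE, adjusted p = 0.00254, and -0.20 with the offset) in Glut1 transgenic cells. Etfa had 316, 324, 290.5 and 313 CPM in the Glut1 transgenic Tnnt2low libraries, against 591, 460, 388 and 376 CPM in the Tnnt2high libraries, and 282 and 393 CPM in WT Tnnt2low against 382 and 391 CPM in WT Tnnt2high. The log2 fold change of Etfa was -0.55 ± 0.15 (SE, adjusted p = 0.0206, and -0.12 with the offset), and neither subunit overlapped between the Glut1 transgenic populations, with 12.03% of the Etfa transcript shared with other loci. Etfdh was lower in all Glut1 transgenic Tnnt2low libraries but was not called (log2 fold change -0.20, adjusted p = 0.161).

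**Figure D2:**
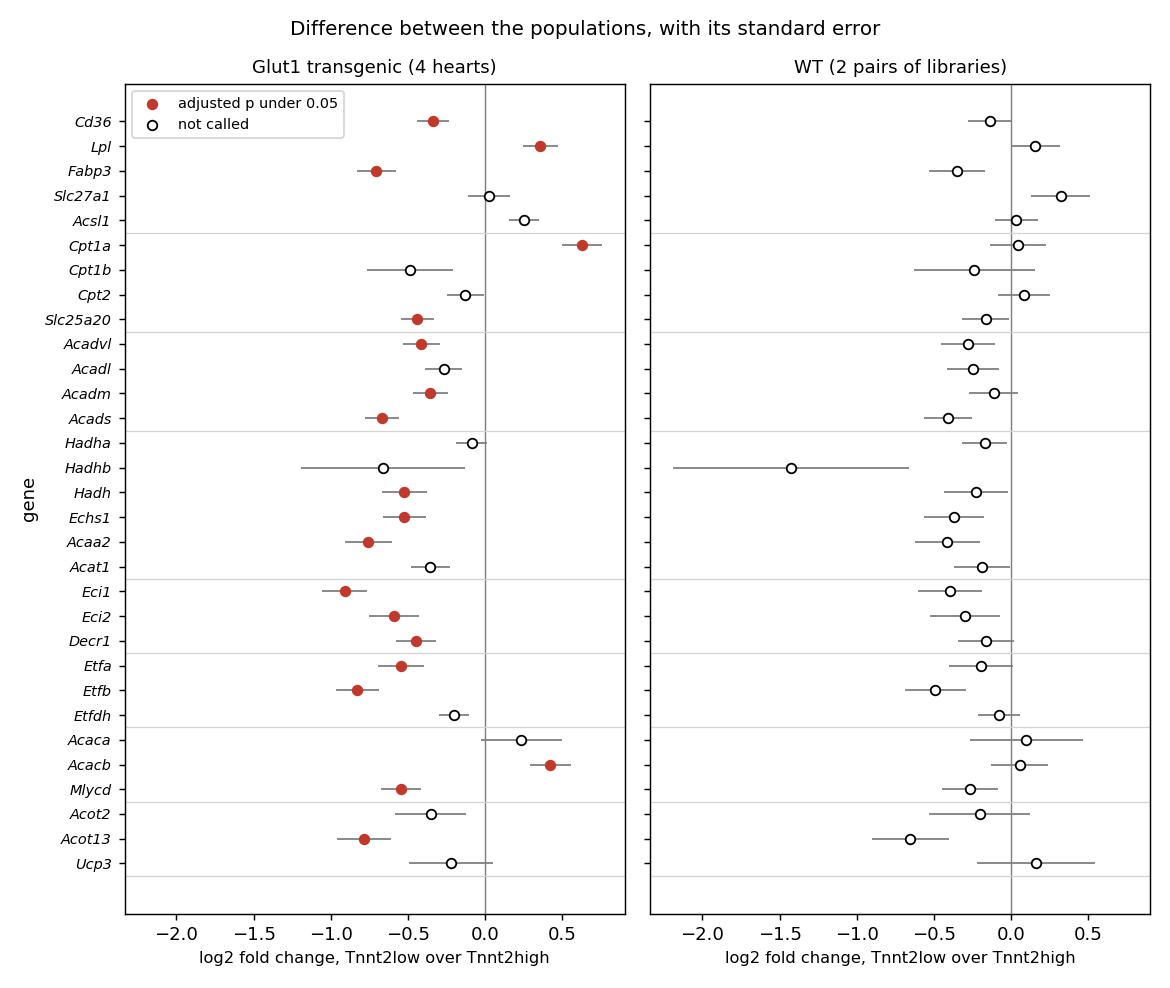
Points give the log2 fold change of each member, Tnnt2low over Tnnt2high, in Glut1 transgenic cells (left, 4 libraries a group) and WT cells (right, 2 libraries a group), bars the standard error, and filled points the genes called. In Glut1 transgenic cells 25 of 31 points lie below 0 (50.4% of all tested genes), from -0.91 for Eci1. In WT cells 23 of 31 lie below 0 (50.1%) with none called.

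Malonyl-CoA, the inhibitor of Cpt1a and Cpt1b, is made by the carboxylases Acaca and Acacb and removed by the decarboxylase Mlycd. Acacb, the form bound to mitochondria, had 468, 465, 456 and 509 CPM in the Glut1 transgenic Tnnt2low libraries, against 293, 304, 434 and 387 CPM in the Tnnt2high libraries. All Tnnt2low libraries were above all Tnnt2high libraries, at a log2 fold change of 0.42 ± 0.13 (SE, adjusted p = 0.0413, and 0.05 with the offset). In WT, Acacb had 443 and 386 CPM in Tnnt2low against 363 and 435 CPM in Tnnt2high. Mlycd had 119.8, 115, 116 and 103 CPM in the Glut1 transgenic Tnnt2low libraries, against 179, 161, 169 and 155 CPM in the Tnnt2high libraries, the opposite order, with a log2 fold change of -0.55 ± 0.13 (SE, adjusted p = 0.011, and -0.38 with the offset). It had 97.8 and 143 CPM in WT Tnnt2low, against 141 and 149 CPM in WT Tnnt2high libraries. Acaca, the cytosolic carboxylase, had 11.2, 10.3, 11.7 and 9.34 CPM in the Glut1 transgenic Tnnt2low libraries, against 9.48, 9.58, 11.2 and 5.93 CPM in the Tnnt2high libraries, with overlap, and 9.38 and 12.3 CPM in WT Tnnt2low against 8.56 and 11.6 CPM in WT Tnnt2high. It was not called (0.23 ± 0.26 (SE, adjusted p = 0.593) on the log2 scale), and 53.4% of its transcript was shared with Gm5182. The log2 ratio of Acacb to Acaca averaged 5.48 ± 0.21 in Glut1 transgenic Tnnt2low libraries and 5.29 ± 0.50 in Tnnt2high libraries (SD, n = 4 each; exact permutation p = 0.543, adjusted p = 0.889).

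The last 3 members are the thioesterases Acot13 and Acot2, which release fatty acids from acyl-CoA, and the uncoupling protein Ucp3. Acot13, a thioesterase, had 169, 189, 229.7 and 222 CPM in the Glut1 transgenic Tnnt2low libraries, against 408, 342, 323 and 322 CPM in the Tnnt2high libraries. The log2 fold change was -0.79 ± 0.18 (SE, adjusted p = 0.00846, and -0.06 with the offset), without overlap. In WT, Acot13 had 148 and 265 CPM in Tnnt2low against 377 and 272 CPM in Tnnt2high. Acot2, the mitochondrial long-chain thioesterase, had 451, 203, 445 and 337 CPM in the Glut1 transgenic Tnnt2low libraries, against 537, 540, 286 and 472 CPM in the Tnnt2high libraries, and 274 and 255 CPM in WT Tnnt2low against 277 and 333 CPM in WT Tnnt2high. It was not called (log2 fold change -0.35 ± 0.23 (SE, adjusted p = 0.322)), and 38.5% of its transcript was shared with other loci, Acot1 first. Ucp3, the uncoupling protein of muscle, had 20.8 to 43.3 CPM in Glut1 transgenic Tnnt2low libraries and 19.99 to 42.98 CPM in Tnnt2high libraries and was not called.

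**Figure D3:**
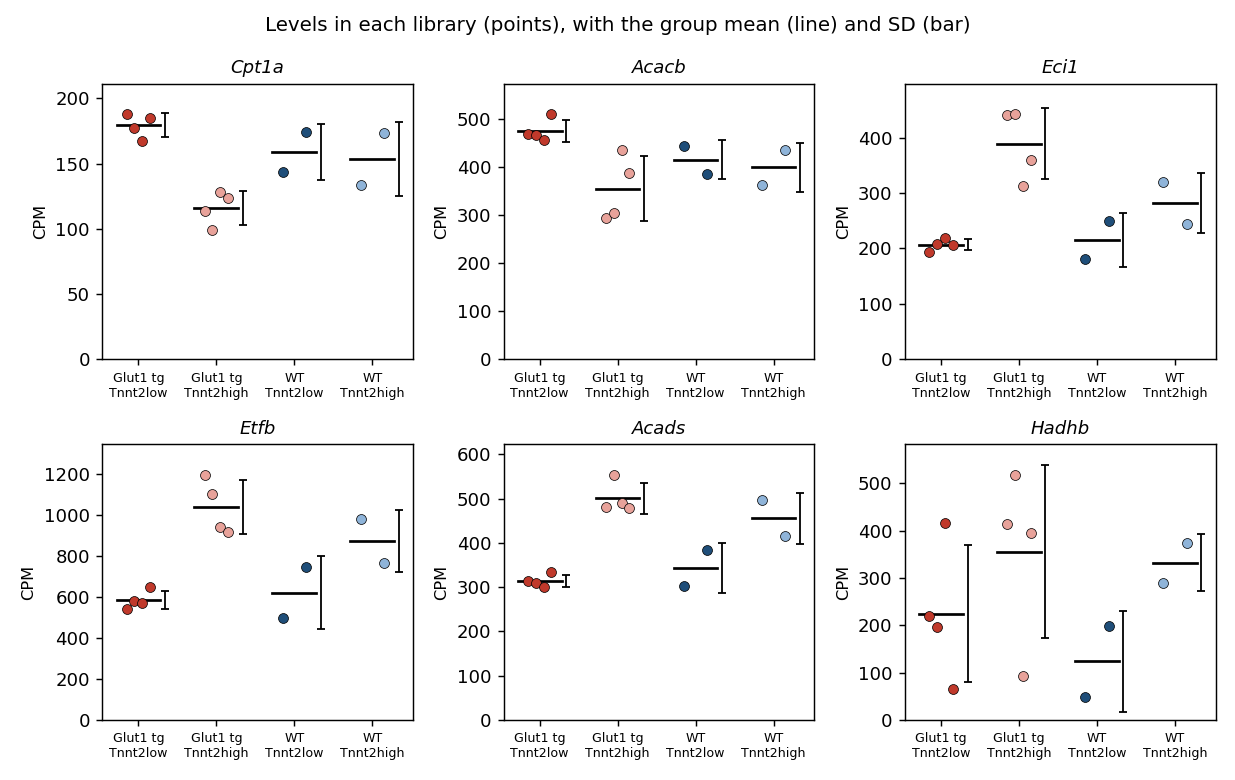
Each panel plots CPM of 1 gene from 0, with a point per library, the group mean as a line and its SD as a bar. Cpt1a and Acacb lie higher and Eci1, Etfb and Acads lie lower in Glut1 transgenic Tnnt2low than in Tnnt2high libraries without overlap, and Hadhb spreads from 65.1 to 416 CPM within the Glut1 transgenic Tnnt2low group.

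The direction of change followed transcript length. The longest protein-coding transcripts of the members ran from 721 bases (Acot13) to 9513 bases (Acaca), with a median of 2168 bases, against 3213 bases for all tested genes with a length. Across the 31 members, Spearman's rho of log2 fold change with length was 0.87 in Glut1 transgenic cells, and across 12189 tested genes it was 0.54. In WT cells the same values were 0.76 and 0.35. These are descriptions across genes of the same libraries, and genes are not independent replicates. Among transcripts under 2000 bases, 11 of 12 members were called lower, against 24.9% of 2967 tested genes. Among those of 2000 to under 4000 bases, 5 of 14 members were called lower, against 4.39% of 4808 genes. Of the 5 members of 4000 bases or longer, 0 were called lower and 3 were called higher, against 1.52% and 20.5% of 4414 genes. Median log2 fold changes in the 3 length classes were -0.63, -0.35 and 0.36 for the members and -0.51, -0.04 and 0.34 for all tested genes.

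**Figure D4:**
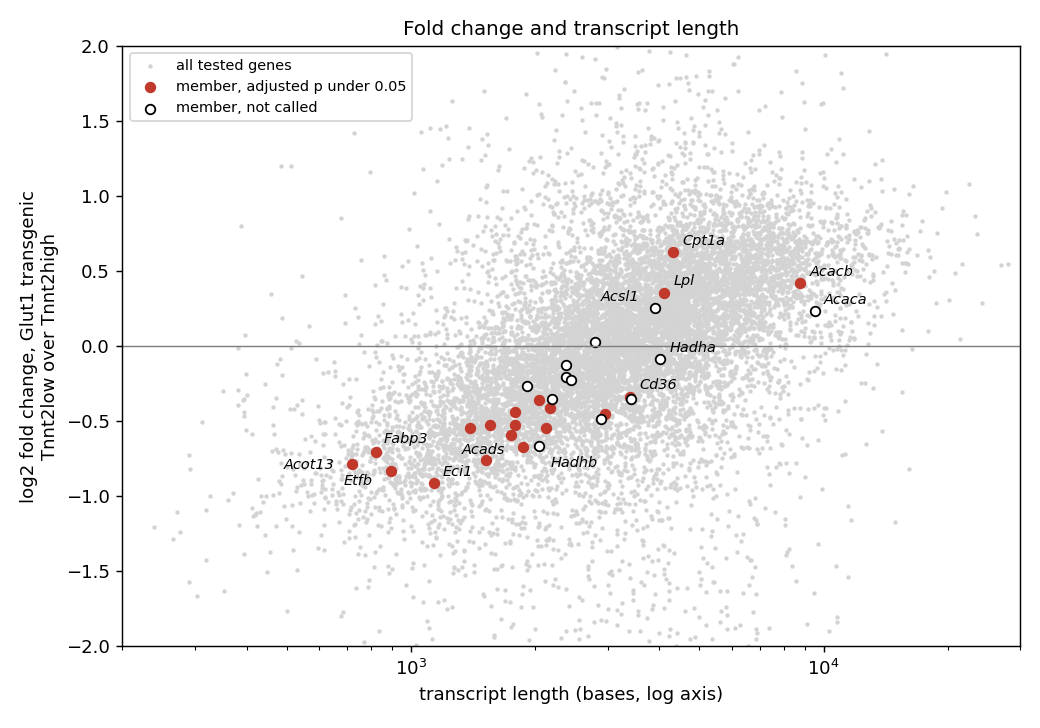
The vertical axis gives the log2 fold change of Glut1 transgenic Tnnt2low over Tnnt2high libraries and the horizontal axis the transcript length on a log scale, in grey for all tested genes and in larger points for the members, filled where called. Fold changes climb with length in both, from -0.79 for Acot13 at 721 bases to 0.42 for Acacb at 8788 bases. Of 12189 genes with a length, 359 lie outside the axes.

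With the length and GC offset, the smallest p among the members belonged to Acads (log2 fold change -0.42, adjusted p = 0.0705), Eci1 (-0.39, adjusted p = 0.0734) and Cpt1a (0.45, adjusted p = 0.102). The members moved by unequal amounts. Fabp3 had a log2 fold change of -0.03 in place of -0.70, Acot13 -0.06 in place of -0.79, Etfb -0.20 in place of -0.83 and Acacb 0.05 in place of 0.42. Decr1 had -0.39 in place of -0.45 and Cd36 -0.26 in place of -0.34, and Acat1, which was called in neither fit, had -0.38 in place of -0.35. With the replicate block added, adjusted p was 0.0419 for Cpt1a and 0.045 for Acads, and the other 29 members were not called. The offset removes any trend with length or GC content from each library, whatever its source.

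WT cells were compared in the same way, with 2 libraries a population. No member was called lower or higher (0% and 0% of tested genes), and by DESeq2's test 0 members were called too. At an unadjusted p under 0.05, 3 members were lower, Acot13 (log2 fold change -0.65), Etfb (-0.49) and Acads (-0.41), against 1.91% of tested genes, and 0 were higher, against 1.2%. The members' median log2 fold change was -0.20, and it depended on 1 library, being -0.02 with WT Tnnt2low replicate 1 left out and -0.41 with replicate 2 left out. With the length and GC offset 0 members were lower or higher at unadjusted p under 0.05, and the median was -0.14. With the heart as a block as well, 1 was lower, and the share of all tested genes was counted in neither fit. WT Tnnt2low replicate 1 had the lowest summed level of the members, 19076 CPM, against 26513 CPM in replicate 2. The WT Tnnt2high libraries held 27240 and 27069 CPM. Summed levels in Glut1 transgenic cells were 21591 to 22610 CPM in Tnnt2low and 26381 to 33738 CPM in Tnnt2high libraries.

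Within single pairs of libraries the picture was uneven. In all 4 Glut1 transgenic hearts 18 of 31 members were lower in Tnnt2low cells (19.1% of tested genes) and 4 were higher (20.3%). In both WT pairs 18 members were lower (25% of tested genes) and 4 were higher (25.6%). The members' median log2 difference was -0.61, -0.42, -0.19 and -0.32 in Glut1 transgenic hearts 1 to 4, against -0.35 and -0.04 in WT pairs 1 and 2. Glut1 transgenic heart 3 had the smallest shift of the Glut1 transgenic hearts, and WT pair 2 had almost none. WT pair 2 was also the pair whose libraries had nearly equal reads outside exons per gene read, 1.495 in Tnnt2low and 1.51 in Tnnt2high. The difference in that measure, Tnnt2low minus Tnnt2high, was -0.70 in WT pair 1. In Glut1 transgenic hearts 1 to 4 it was -1.25, -1.68, -1.44 and -1.32, an order other than that of their medians. The part of that measure in the members' differences was not tested.

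**Figure D5:**
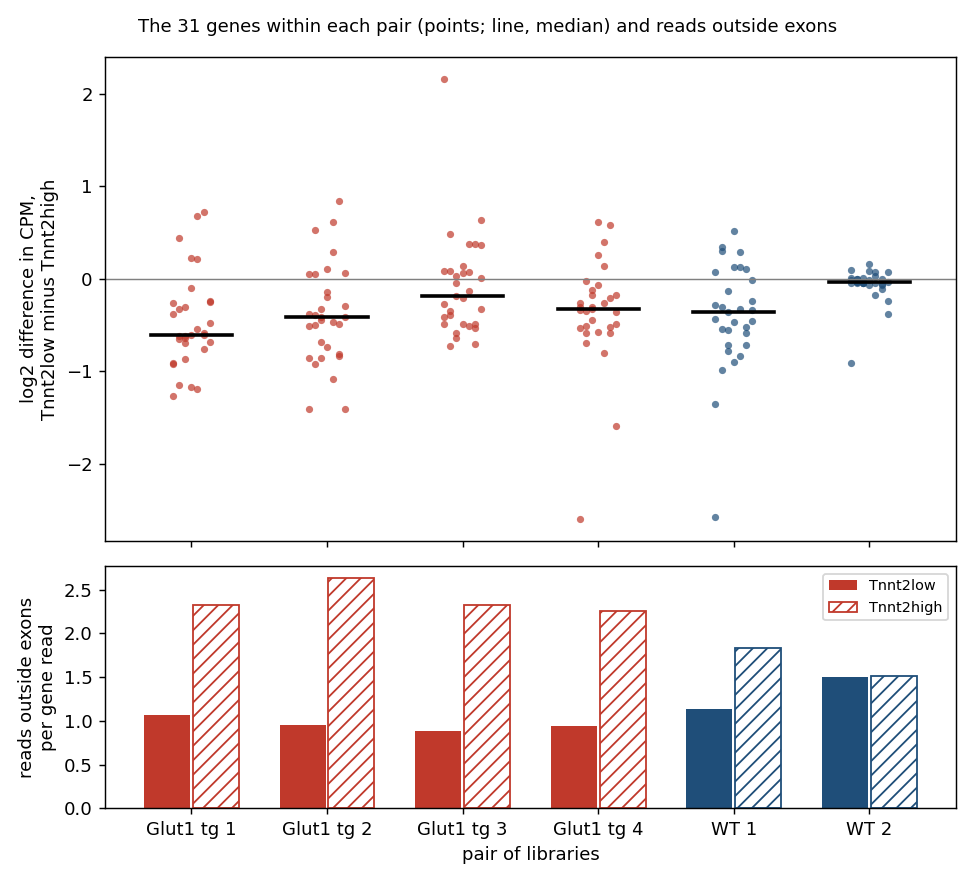
The upper panel shows the log2 difference in CPM, Tnnt2low minus Tnnt2high, of the 31 members (points) in each pair of libraries, with the median as a line, and the lower panel shows the reads outside exons per gene read of both libraries. Medians lie between -0.61 and -0.19 in the Glut1 transgenic pairs and at -0.35 and -0.04 in the WT pairs.

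Genotype was compared within each population. Slc2a1, whose libraries did not overlap between genotypes, was not called in Tnnt2low (log2 fold change 1.75 ± 0.42, SE) or Tnnt2high cells (1.60 ± 0.42, SE). The absence of a call with 2 WT libraries a population therefore does not show equal levels. In Tnnt2low cells 0 members were called higher (0% of tested genes) and 0 lower (0.00816%), and at unadjusted p under 0.05 likewise 0 were higher (0.93%) and 0 lower (1.16%). DESeq2's test called 0 members. The 3 members with the smallest p were Hadh (log2 fold change, Glut1 transgenic over WT, -0.28 ± 0.18), Acot2 (0.44 ± 0.29) and Slc27a1 (-0.21 ± 0.16, SE). The members' median of -0.09 became 0.18 when WT Tnnt2low replicate 2 was left out and -0.25 when replicate 1 was. In Tnnt2high cells 0 members were called higher (0%) or lower (0%), and DESeq2's test also gave 0. At unadjusted p under 0.05, Eci1 (0.46) and Decr1 (0.37) were higher, against 2.17% of tested genes, and Cpt1a (-0.40) and Lpl (-0.35) were lower, against 3.13%. The median was 0.11, with 25 of 31 members above 0 (49.6% of all tested genes). Spearman's rho of log2 fold change with transcript length in Tnnt2high cells was -0.62 across the members and -0.33 across all tested genes. With the length and GC offset the median was 0.06. At unadjusted p under 0.05, 2 members were then higher and 1 lower, where the share of all tested genes was not counted. The study lists the member Hadhb among its top genes higher in Glut1 transgenic than in WT Tnnt2high cells. Here the genotypes differed in Hadhb by 0.10 ± 0.65 (SE, log2 scale) for Tnnt2high cells, against 0.86 ± 0.67 for Tnnt2low cells. Neither difference was called, and the genotypes overlapped in both. Whether the study's genotype lists name the populations as they are named here was not tested.

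The difference between the population effects in the genotypes was tested directly, as an interaction. No member was called higher (0% of tested genes) or lower (0%), by edgeR or by DESeq2's test. Cpt1a was the 1 member higher at unadjusted p under 0.05 (interaction 0.58 ± 0.22 on the log2 scale, SE, adjusted p = 0.961 in edgeR), against 2.32% of tested genes, and 0 were lower, against 2.2%. The members' median interaction was -0.21 and became 0.04 without WT Tnnt2low replicate 2. Spearman's rho of the interaction with transcript length was 0.60 across the members and 0.33 across all tested genes. With the length and GC offset 0 members passed unadjusted p under 0.05 in either direction, and the median was -0.12. With the heart as a block as well, 1 was higher, and the share of all tested genes was counted in neither fit. A population difference called in Glut1 transgenic cells and not in WT cells was therefore not shown to differ between them.

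Other genes of fatty acid metabolism were counted from lists, to be read against the 8.33% of all tested genes called lower and the 8.42% called higher. Of 25 other mitochondrial acyl-CoA genes 5 were called lower and 0 higher in Glut1 transgenic Tnnt2low over Tnnt2high, with a median of -0.43. Among them were Hsd17b10 (log2 fold change -0.76), a hydroxyacyl-CoA dehydrogenase, Mcee (-0.97), the methylmalonyl-CoA epimerase, and Nudt8 (-0.85), a hydrolase of coenzyme A. Peroxisomal oxidation had 3 of 18 lower and 0 higher, namely Amacr (-0.90), a racemase of branched acyl-CoA, the thiolase Acaa1a (-0.77) and Phyh (-0.51), which begins the oxidation of phytanic acid. Further genes of uptake, binding and activation had 1 of 17 lower, near the share of all genes, the acyl-CoA binding protein Dbi (-0.71), and the carnitine pool had 0 of 5 in either direction.

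Of 27 regulators 6 were called higher and 1 lower, with a median of 0.37. Ncor1, a co-repressor of nuclear receptors, had a log2 fold change of 0.68, Prkaa2, a catalytic subunit of AMP-activated kinase, 0.60, and Ppargc1b, a coactivator of oxidative genes, 0.66. Ppargc1b had 151, 160.1, 146 and 172 CPM in the Glut1 transgenic Tnnt2low libraries, against 74.1, 98.3, 109 and 118 CPM in the Tnnt2high libraries, without overlap. In WT, Ppargc1b averaged 150 CPM in Tnnt2low and 128 CPM in Tnnt2high libraries, and 0 of the 27 regulators were called between the WT populations. Against the same 8.42% higher and 8.33% lower, the remaining lists lay near the share of all genes. Of 16 genes of fatty acid synthesis and desaturation 2 were higher, Srebf2 (0.51) and Scd2 (0.66), and 0 lower. Storage and lipolysis had Plin4 higher (0.66) and Fitm1 lower (-0.87) of 20 genes. With the length and GC offset Amacr was the 1 gene of these 14 still called (log2 fold change -0.83, adjusted p = 0.0444), and Dbi had a log2 fold change of 0.11.

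Promoter sequences were searched because many members are known targets of the nuclear receptors PPAR and ERR. RefSeq windows of GRCm38.p6, 250 bases before to 50 bases after the start site, were matched to 25 of the 31 members, and the members not matched were Lpl, Cpt1b, Acaa2, Decr1, Acot13 and Acat1. The core nuclear receptor site AGGTCA, on either strand, occurred in 7 of 28 member windows (25%) and in 16.3% of 32851 windows of all genes. Its direct repeat with 1 base between, the PPAR element, occurred in 0 member windows and 0.0396% of all, and the core site preceded by TCA, the ERR element, in 0 member windows and 0.423% of all. Both longer motifs contain the core site. The core site, or its reverse complement, is in capitals in the stretches of the 5 called members that had it before the start site, 1 of them higher and 4 lower in Glut1 transgenic Tnnt2low cells. Each is given 5′ to 3′ on the gene's strand, and a match is not a measured binding site.
Cpt1a, chr19:3323195-3323224, plus strand: cagtttccttacTGACCTcctccccgcagc
Echs1, chr7:140116487-140116516, minus strand: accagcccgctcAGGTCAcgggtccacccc
Acadvl, chr11:70015498-70015527, minus strand: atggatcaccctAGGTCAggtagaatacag
Cd36, chr5:17836107-17836136, minus strand: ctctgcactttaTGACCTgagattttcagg
Acadm, chr3:153944875-153944893, minus strand: gTGACCTtcgggctccggt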

How the data were processed

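RNA-seq was made from 12 libraries of sorted postnatal day 1 cardiomyocytes, although the extraction notes describe dissected heart tissue. Per the study's methods and the submitters' processing notes, the authors checked single-end reads with FastQC, trimmed low-quality bases, aligned them to mm10 with HISAT2 and counted reads over the union of exons with HTSeq; no source used here gives tool versions or strandedness. The deposited values are raw counts per gene, 24421 gene rows and 5 rows that name no gene in each file. These 5 rows (reads outside exons, ambiguous, low quality, unaligned or not unique) were left out of library sizes and tests. Genes took 16.2% to 36.4% of all records.

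Counts of all genes were filtered with filterByExpr, scaled by TMM and fitted in edgeR 4.0.16 (R 4.3.3) by the quasi-likelihood test with 1 term per group over all 12 libraries, and p-values were adjusted over 12252 genes by Benjamini-Hochberg. The biological coefficient of variation was 0.314. Ratios between members used log2 of counts plus 0.5 and exact permutation tests over libraries. Lengths and positions came from GENCODE vM21, which matched 24054 of 24421 symbols (98.5%), and shared sequence is the percent of a transcript's stretches of 30 bases found at another locus. The alternatives were DESeq2 1.42.0 (its test, and its size factors in edgeR), no filter, a robust fit, the libraries of the compared groups alone, the heart as a block, an offset for length and GC content (loess, span 0.3), both together, 2 counts in place of 0.5 in ratios, and leaving out each library. Hearts pair the libraries, since each Glut1 transgenic heart gave both populations, and deviations from the group means correlated at 0.226, 0.131, 0.118 and 0.107 within its 4 hearts.

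The members and lists were chosen with earlier results of these data known. Values are given by library for members called in any comparison, for the 3 of smallest p in each pairwise comparison and for Cd36, Cpt1a, Cpt1b, Acaca, Acacb, Hadha and Hadhb. Up to 3 called genes of smallest p are named from each other list, and of these Ppargc1b is also given by library. Besides the lists reported, marker lists were counted in Glut1 transgenic Tnnt2low over Tnnt2high, where 8.42% of all tested genes were called higher and 8.33% lower. Of 14 cardiomyocyte genes 2 were higher and 6 lower (median log2 fold change -0.35). Of 12 endothelial genes 0 were called (median -2.23). Mural genes had 2 of 9 higher and 2 lower, and 0 of 2 leukocyte and 0 of 1 erythroid genes were called. Adipocyte markers summed to at most 1.04 CPM. The edgeR fit of group means was tested on simulated counts with known changes, for Glut1 transgenic Tnnt2low over Tnnt2high alone. The simulated counts held no pairing and no length trend. The block, the offset, DESeq2 and the other comparisons were not tested in this way.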

Additional observations from a re-analysis of the deposited data

Results flagged for a closer look

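Among 56 sets of 4 libraries (the members named by library and the ratios, in each Glut1 transgenic population) 3 held a library far from the other 3 by Dixon's test, where chance alone gives about 1 in 20. Hadh had 389 CPM in Glut1 transgenic Tnnt2low replicate 4, against 451 to 459 CPM in the other 3 libraries of that group. Slc25a20 had 121 CPM in Glut1 transgenic Tnnt2low replicate 1, against 135 to 138 CPM in the others. Acads had 553 CPM in Glut1 transgenic Tnnt2high replicate 2, against 479 to 490.5 CPM in the others.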

How the results depend on the processing

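Of the 31 members in Glut1 transgenic Tnnt2low over Tnnt2high, 16 called lower and 3 called higher became 0 and 0 with the offset for length and GC content and 1 and 1 with the heart as a replicate block and that offset, and the median of -0.41 became -0.19 and -0.18. All tested genes then gave 50 higher and 97 lower calls with the offset, against 1032 and 1020. With the replicate block alone 16 were lower and 2 higher (9.25% and 9.83% of tested genes), with Lpl lost and no other named call changed. Leaving out 1 library gave 8 to 17 lower and 1 to 3 higher calls, against 5.2% to 8.23% and 4.91% to 8.45% of tested genes. Acaca changed sign with the offset (-0.22) and with block and offset (-0.18), as did Dbi (0.11 and 0.12), and the cause was not tested. DESeq2's test gave 17 lower and 3 higher (7.59% and 7.32% of tested genes). Its size factors gave 16 and 2 (8.58% and 7.92%, Lpl lost), and no filter gave 14 and 3 (6.08% and 6.34%, Acadm and Cd36 lost).

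Leaving out 1 library, the members' median ranged from -0.41 to -0.019 between WT populations, from -0.25 to 0.18 for genotype in Tnnt2low and from -0.36 to 0.035 for the interaction, and Hadh for genotype in Tnnt2low from -0.61 to 0.16. The log2 ratio differences changed sign in some of these, with ranges of -0.019 to 0.39 for Cpt1b over Cpt1a by genotype in Tnnt2high, -0.34 to 0.24 for Acacb over Acaca between WT populations, -0.074 to 0.51 and -0.25 to 0.10 for that ratio by genotype in Tnnt2low and Tnnt2high, and -0.38 to 0.45 for Hadha over Hadhb by genotype in Tnnt2high. Paired within hearts, the Cpt1b over Cpt1a difference of -1.14 had an exact sign-flip p of 0.125, the smallest that 4 hearts allow. The 2 WT libraries a population limit every WT and genotype comparison, and Acaca (25 to 117 reads a library) limits its ratio.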
